A study of Mus musculus with 6 samples.

Results

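The 7 transcription factor genes described here belong to the primitive streak: T, Mixl1, Eomes, Mesp1, Evx1, Lhx1 and Nkx1-2. They were taken by exact name from a deposited table of 12826 genes, in which all 7 were found. They were chosen by name as streak genes, and selected on FPKM levels in the anterior and posterior pieces that were already known from these same libraries, so the contrast between the domains is given for them as a description, without a test. All 7 had a mean of at least 1 FPKM (fragments over a kilobase of transcript, relative to all mapped fragments) over the 6 libraries. They are thus among the 10914 genes that entered the fit across all genes, and none was lost to that filter.

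The libraries came from ETX-embryos, mouse embryo-like structures that form when embryonic, trophoblast and extraembryonic endoderm stem cells are grown together. The 3 structures, A, B and C, received no treatment and carried a reporter in which T/Brachyury marks cells with GFP. After removal of the trophoblast compartment the embryonic compartment was cut lengthwise, and the piece with GFP was collected as prospective posterior and the piece without it as prospective anterior. This gave 3 anterior and 3 posterior libraries, 1 of each from every structure. The reporter sorted the pieces, so T and any gene expressed in the same cells could differ by that choice alone. Age or culture day is not given in the labels, and each library is 1 bulk piece, in which fewer cells of a type and less RNA per cell cannot be told apart.

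The primitive streak is the region of the posterior epiblast where cells leave the epithelium to become mesoderm and definitive endoderm. Wnt3 and Nodal signals start it, and they switch on T-box factors (T and Eomes) and homeobox factors (Mixl1, Evx1, Lhx1) in overlapping regions. T, which encodes Brachyury, marks the whole streak and the node. Eomes acts with Nodal in anterior mesoderm and definitive endoderm, Mixl1 in mesendoderm, Mesp1 in the first cardiac and cranial mesoderm, and Lhx1 in anterior mesendoderm and early mesoderm. Evx1 marks the proximal posterior streak, and Nkx1-2 marks the later streak and the caudal epiblast that feeds the body axis.

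In GENCODE M21 (GRCm38, the build named mm10 in the submitters' processing notes), T (ENSMUSG00000062327) lies on chromosome 17 from 8434423 to 8442496, plus strand, with 8 exon blocks. Mixl1 (ENSMUSG00000026497) lies on chromosome 1 from 180693043 to 180697034, and Eomes (ENSMUSG00000032446) on chromosome 9 from 118478212 to 118486132. Mesp1 (ENSMUSG00000030544) and Nkx1-2 (ENSMUSG00000048528) are both on chromosome 7, from 79792241 to 79793788 and from 132594878 to 132599637. Evx1 (ENSMUSG00000005503) is on chromosome 6 from 52313498 to 52318378, and Lhx1 (ENSMUSG00000018698) on chromosome 11 from 84518284 to 84525535. An antisense gene overlaps exons of 3 members: Gm33460 shares 118 exon bases with Eomes, Evx1os 73 with Evx1 and Gm16764 541 with Nkx1-2. Nkx1-2 also overlaps Fgfr2 on the same strand without a shared exon base. Counting by strand is not stated, so reads of these antisense partners cannot be told apart from reads of the 3 members.

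The promoter table (RefSeq, GRCm38.p6) held 6 of the 7 genes. The 250 bases before the start site are shown for 4 of them, chosen as contrasts: T and Nkx1-2 were listed at 0 in the posterior piece of C but not in those of A and B, Eomes was above 0 in all 3 posterior libraries, and Lhx1 was highest in posterior C. Capitals mark matches on either strand to the core that TCF/LEF factors of Wnt signalling bind (CTTTG, or CAAAG on the other strand) and to the core that T-box proteins bind (GGTGT, or ACACC). No TCF/LEF match overlaps a T-box match in these windows.
T, chr17:8434173-8434422, plus strand: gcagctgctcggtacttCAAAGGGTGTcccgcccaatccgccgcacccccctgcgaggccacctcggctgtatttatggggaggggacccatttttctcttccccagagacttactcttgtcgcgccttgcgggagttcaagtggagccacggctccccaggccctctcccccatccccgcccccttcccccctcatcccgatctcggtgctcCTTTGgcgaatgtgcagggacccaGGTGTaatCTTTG
Nkx1-2, chr7:132599638-132599887, minus strand: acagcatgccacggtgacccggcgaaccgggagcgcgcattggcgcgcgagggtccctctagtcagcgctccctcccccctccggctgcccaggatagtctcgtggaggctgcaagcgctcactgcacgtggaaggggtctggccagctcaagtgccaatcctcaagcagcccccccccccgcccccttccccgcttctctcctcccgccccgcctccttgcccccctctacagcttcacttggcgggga
Eomes, chr9:118477939-118478188, plus strand: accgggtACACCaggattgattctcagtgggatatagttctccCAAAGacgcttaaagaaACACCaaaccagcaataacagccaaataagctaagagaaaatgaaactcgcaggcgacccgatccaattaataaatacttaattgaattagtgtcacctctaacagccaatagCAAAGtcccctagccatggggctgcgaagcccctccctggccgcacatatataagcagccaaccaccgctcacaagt
Lhx1, chr11:84525535-84525784, minus strand: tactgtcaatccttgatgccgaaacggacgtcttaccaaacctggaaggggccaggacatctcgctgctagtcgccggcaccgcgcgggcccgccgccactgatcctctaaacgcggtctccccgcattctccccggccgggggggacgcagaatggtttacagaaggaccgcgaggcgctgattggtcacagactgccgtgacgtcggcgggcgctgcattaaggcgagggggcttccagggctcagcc

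The T window held 3 TCF/LEF matches, which begin at positions -233, -37 and -5 relative to the start site, and 2 T-box matches, at -228 and -13. The first T-box match directly follows the first TCF/LEF match. The Eomes window held 2 TCF/LEF and 2 T-box matches, and the Nkx1-2 and Lhx1 windows held neither. Of the 2 windows not shown, that of Mesp1 held 2 TCF/LEF matches and 1 T-box match, although part of it lies within Mesp1 as GENCODE draws it, and that of Evx1 held 2 T-box matches. So 3 of 6 windows held a TCF/LEF match and 4 of 6 a T-box match, against 48.6% and 36.2% of 32851 promoter windows of this length. At least 3 TCF/LEF matches, as in T, occur in 3.94% of them. The core bound by SMAD proteins (CAGAC or GTCTG) was found in 4 of 6 windows, against 42.2% of all, and that of FOXH1, the partner of SMADs in Nodal signalling (TGTNNATT or AATNNACA), in 0 of 6, against 10.9%. T and Nkx1-2, which were above 0 in the same posterior libraries, thus differed in these letters. A match is a description of the sequence, not a known site, and its absence concerns this window alone.

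The libraries differed in how many genes they list. Genes above 0 numbered 9335 to 11082 in the anterior and 10260 to 12141 in the posterior libraries, with more in the posterior piece of each embryo. Read depth is not given, and the ratios of low FPKM values do not settle it. Against anterior A they put anterior B at 1.41 and posterior B at 2.82 times its depth, while the direct comparison of these B libraries gave a ratio of 1.00. Depth ratios are thus known only up to a factor of 2, and no read numbers are given here. Over all 10914 genes in the fit the difference between the posterior and the anterior piece had a median of 0.43 in log2(FPKM + 1), made up of 0.91 (A), 0.02 (B) and 0.17 (C) by embryo. Anterior A correlated with the other libraries at Spearman 0.50 to 0.61 across genes, while posterior A and B correlated at 0.85. Epiblast and pluripotency markers were above 0 for 16 of 16 genes in every posterior library and for 11 to 13 in the anterior ones, with summed levels of 606 to 2092 FPKM against 247 to 566 FPKM. Dppa5a alone gave 1419 FPKM in posterior C and 108 FPKM in posterior B, against 70.9 FPKM in anterior C, so the gap between these sums rests largely on 1 gene. The mean log2(FPKM + 1) of the list was 4.40 to 5.10 in the posterior and 1.96 to 3.36 in the anterior libraries. Visceral endoderm markers, of an outer extraembryonic layer, were above 0 for 12 of 13 genes in anterior A and B and for 5 in anterior C, and for 8 to 13 in the posterior libraries. Their summed levels ran from 176 FPKM in anterior C to 3757 FPKM in posterior B, where Spink3 alone gave 3276 FPKM, while the mean log2(FPKM + 1) of the list was highest in anterior B (5.41). Parietal endoderm markers (12 genes) summed to 318 to 2003 FPKM in the anterior (lowest in C) and to 350 to 884 FPKM in the posterior libraries (highest in C). The part of these cell types in the results below was not tested.

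T itself did not follow the domain labels in every structure. In embryos A and B it was listed at 0 in the anterior piece and had 5.03 (A) and 15.6 FPKM (B) in the posterior piece. Embryo C had 42.5 FPKM in the library labelled anterior and was listed at 0 in the one labelled posterior. The highest T level of all 6 libraries was therefore in an anterior one. In log2(FPKM + 1) the posterior minus anterior difference was 2.59 in A, 4.05 in B and -5.44 in C, with a mean of 0.40 ± 5.11 (SD, n = 3). The groups overlap, and the direction of the mean turns when a structure is left out: it was -0.70 without A, -1.43 without B and 3.32 without C. Anterior C was also the library with the fewest visceral endoderm markers above 0 (5 of 13) and, among anterior libraries, the most epiblast markers (13 of 16); their part in the T level was not tested. Among genes kept, 15% were likewise higher in posterior A and B and in anterior C, and 0.495% shared the exact pattern of T, at 0 in anterior A, anterior B and posterior C and above 0 in the other 3 libraries.

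In the same pair of C libraries Mixl1, Mesp1 and Lhx1 were higher in the one labelled posterior, by 4.97, 5.16 and 5.04 in log2(FPKM + 1). Whether the labels of the C pieces are exchanged was not tested, and an exchange would turn the sign of every embryo C difference given here. Without embryo C the mean difference was above 0 for all 7 genes, from 0.56 for Lhx1 to 6.32 for Mixl1.

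Mixl1, a homeobox factor of the streak, was the highest of the 7 in posterior A and B. Each anterior piece was listed at 0, and the posterior pieces had 48.8 FPKM (A), 126 FPKM (B) and 30.4 FPKM (C). Among genes above 0 in the same library these posterior levels lie at percentiles 83.4, 93.9 and 71.2. All 3 posterior libraries were above all 3 anterior ones, and the highest posterior level was 4.16 times the lowest. Averaged over embryos the difference was 5.87 ± 1.03 in log2(FPKM + 1) (SD, n = 3), the largest of the 7.

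Eomes, a T-box factor that is also active in trophoblast stem cells, came next. Its anterior levels were 0 (A), 0 (B) and 1.37 FPKM (C), and its posterior levels 45.9 (A), 35.9 (B) and 12.2 FPKM (C). The groups did not overlap, and the pieces were closest in embryo C, which had the highest anterior and the lowest posterior level. The mean difference was 4.41 ± 1.69 in log2(FPKM + 1) (SD, n = 3). Of the other trophoblast markers, Elf5, a defining trophoblast factor, had a value only in posterior A and B (0.57 and 3.18 in log2(FPKM + 1)), and the whole list of 12, Eomes included, was above 0 for 7 genes in each anterior library and for 6 to 12 in the posterior ones. The summed level of that list ran from 80.0 to 124 FPKM in the anterior and from 90.0 to 161 FPKM in the posterior libraries. The part of trophoblast cells in the Eomes levels was not tested.

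Mesp1 and Lhx1 had their highest level in posterior C. Mesp1, a helix-loop-helix factor of the first mesoderm, was listed at 0 in 3 of 3 anterior libraries and had posterior levels of 2.48 (A), 2.34 (B) and 34.7 FPKM (C). Posterior C was 14.8 times posterior B. Lhx1, a LIM homeobox factor, was likewise listed at 0 in every anterior library, with posterior levels of 0.061 (A), 1.06 (B) and 31.8 FPKM (C). Being at 0 in the anterior and highest in posterior C, as both are, was the pattern of 0.687% of genes. Its level in posterior A lies at percentile 0.41 of the genes above 0 there, and the lowest 5% of genes of like exon length (within 20%) ended at 0.41 FPKM in that library. The Lhx1 value lies below that limit. Both genes had groups that did not overlap, with mean differences of 2.90 ± 1.96 for Mesp1 and 2.06 ± 2.63 for Lhx1 in log2(FPKM + 1) (SD, n = 3). Without embryo C, which held most of the signal, the means were 1.77 for Mesp1 and 0.56 for Lhx1.

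Evx1 and Nkx1-2 showed the opposite order among the posterior libraries. Evx1, a homeobox factor of the posterior streak, had anterior levels of 0.127 (A), 0.090 (B) and 0 FPKM (C) and posterior levels of 8.08 (A), 15.2 (B) and 0.649 FPKM (C). The 2 anterior values above 0 have a ratio of 1.41, the most frequent ratio among low genes of these libraries, and lie at percentiles 3.24 and 1.09 of the genes above 0. Nkx1-2, a homeobox factor of the caudal epiblast, had a value in 2 libraries, the posterior pieces of A (13.5 FPKM) and B (7.35 FPKM), and was listed at 0 elsewhere, a pattern of 0.687% of genes. Its groups touch at 0, and those of Evx1 do not overlap. The mean differences were 2.54 ± 1.64 for Evx1 and 2.31 ± 2.04 for Nkx1-2 in log2(FPKM + 1) (SD, n = 3). For Nkx1-2 the mean was 1.53 without embryo A and 3.46 without C.

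**Figure D1:**
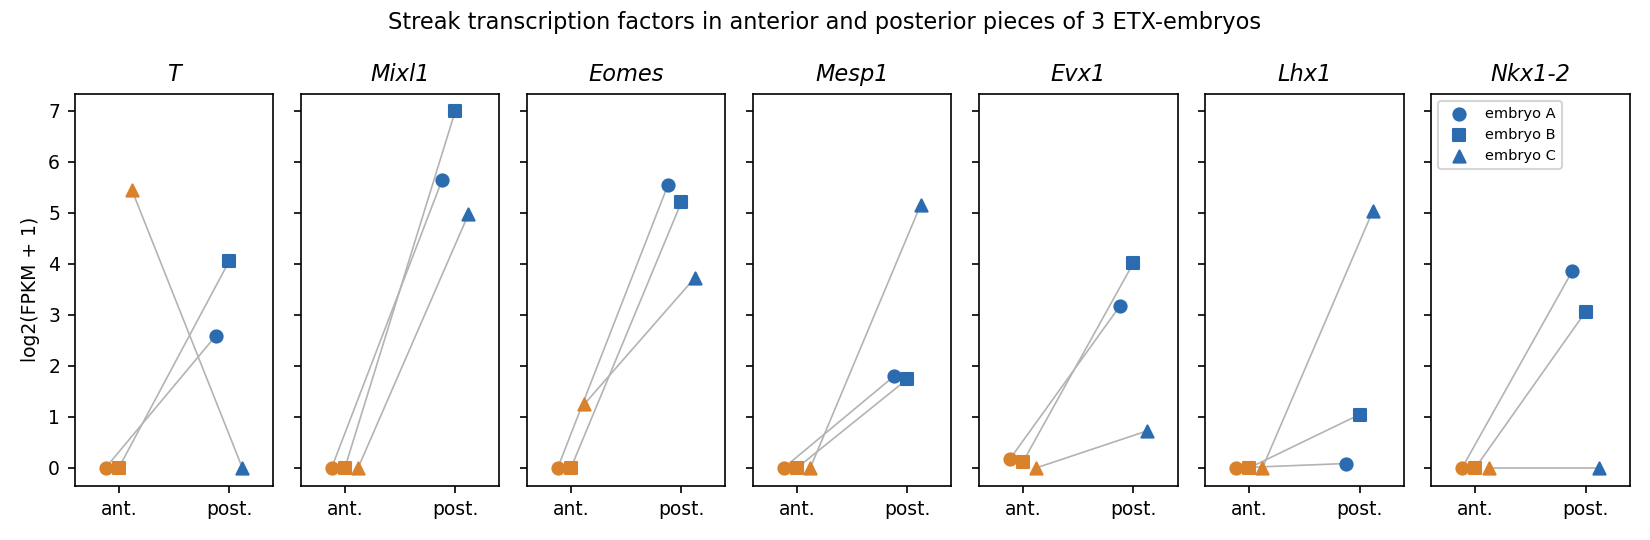
The vertical axis gives the level of each gene as log2(FPKM + 1), and every point is a library: orange for anterior and blue for posterior pieces, with circles for embryo A, squares for B and triangles for C, and a grey line between the pieces of an embryo. T crosses over in embryo C, Mesp1 and Lhx1 are highest in posterior C, and Nkx1-2 is at 0 there.

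Counted together, 5 of the 7 genes (Mixl1, Eomes, Mesp1, Evx1 and Lhx1) had all posterior libraries above all anterior ones, a pattern that 12.3% of the genes in the fit have, and the same 5 were higher in the posterior piece of 3 of 3 embryos, as 21.5% of genes were. None of the 7 had all anterior above all posterior libraries, a pattern of 3.77% of genes. Mixl1, Mesp1 and Lhx1 were at 0 in every anterior and above 0 in every posterior library, as 1.03% of genes were. The genes were chosen with these values known, so the counts describe them and nothing is read from the difference to the background. In embryos A and B all 7 genes were higher in the posterior piece, where the median difference over all genes was 0.91 (A) and 0.02 (B). In embryo C, 5 were higher, T was lower and Nkx1-2 was at 0 in both pieces. The median difference over the 7 genes was 2.54 in log2(FPKM + 1), against 0.43 over all genes tested. Across all genes limma called 0 of 10914 (0% in either direction) at an adjusted p of 0.05, with 790 genes higher and 86 lower in the posterior domain at an unadjusted p under 0.05, so none of the 7 was called. Leaving out anterior A alone, the library least like the others, kept the direction for all 7 except T, whose difference was then -0.51. Leaving out anterior C alone moved that of T to 2.21.

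The make-up of the streak factor signal differed between the posterior libraries. Summed over the 7 genes it was 124 FPKM (A), 204 FPKM (B) and 110 FPKM (C), and at most 0.127 FPKM in anterior A and B. Mixl1 and Eomes made up 76.4% and 79.6% of the sum in posterior A and B and 38.8% in posterior C. Mesp1 and Lhx1 made up 2.05% and 1.67% in posterior A and B and 60.6% in posterior C. Evx1 and Nkx1-2 gave 17.5% and 11.1% in A and B and 0.592% in C. In anterior C the sum was 43.9 FPKM, of which T was 96.9% and Eomes 3.13%. With 1 posterior library per embryo, a difference between embryos and a difference between single libraries cannot be told apart.

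**Figure D2:**
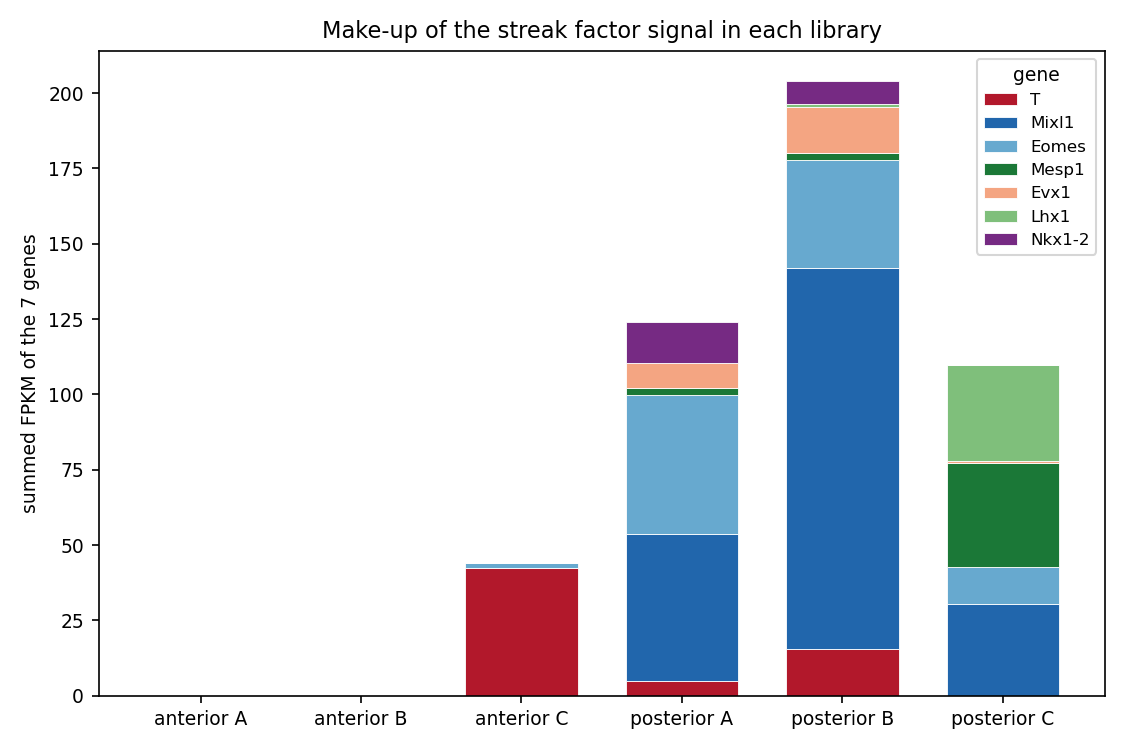
Summed FPKM of the 7 genes on the vertical axis, 1 bar per library, stacked by gene. Mixl1 (dark blue) and Eomes (light blue) fill most of posterior A and B, Mesp1 (dark green) and Lhx1 (light green) most of posterior C, and T (red) nearly all of anterior C.

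A second comparison asked whether any of the 7 differed among the embryos, averaged over both pieces. The F test of limma for the embryo term called 0 of 10914 genes (0%) at an adjusted p of 0.05, with 302 at an unadjusted p under 0.05. The adjusted p of the 7 genes ran from 0.996 to 0.998. The embryo means of Lhx1 were 0.04, 0.52 and 2.52 in log2(FPKM + 1) in A, B and C, those of Mesp1 0.90, 0.87 and 2.58, and those of Evx1 1.68, 2.07 and 0.36. None of these passed the test, which does not show that the embryos were alike. For Mixl1, Mesp1, Lhx1 and Nkx1-2, at 0 in every anterior library, posterior spread enters the embryo term and the residual alike. Nearly the same holds for Evx1, whose anterior levels were at most 0.17 in log2(FPKM + 1). The test could therefore hardly call these genes, however much their posterior levels differed, and nothing is drawn from it for them. Whether the posterior minus anterior difference itself varies by embryo has no test here, since each embryo has 1 library per domain.

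By Pearson r over the 6 libraries the genes fell into pairs, of which 1, Mesp1 with Lhx1, was also the closest for both members by Spearman rho. Pearson r of log2(FPKM + 1) was 0.96 between Mixl1 and Eomes, 0.95 between Evx1 and Nkx1-2 and 0.94 between Mesp1 and Lhx1. Across pairs it was 0.88 for both Mixl1 and Eomes with Evx1, 0.68 for Mixl1 with Mesp1, and -0.02 for Evx1 with Lhx1. By Spearman rho Mixl1 was nearest to Evx1 (0.94, against 0.89 with Eomes), Nkx1-2 to Eomes (0.86, against 0.78 with Evx1), and Evx1 with Lhx1 stood at 0.76. Mesp1 with Lhx1 had a rho of 0.94. T was like none of them by r: its r ran from -0.33 with Lhx1 to 0.39 with Nkx1-2. The 6 libraries come from 3 embryos and differ in how many genes they list, and with so few points many genes match by r: 0.394% of the other genes were at least as like Mixl1 as Eomes was, 0.898% at least as like Evx1 as Nkx1-2 was, and 1.23% at least as like Mesp1 as Lhx1 was. For T, 26.2% of the other genes were at least as like it as Nkx1-2, the nearest of the 7. The genes were also chosen on their levels in these libraries. Mixl1, Mesp1, Lhx1 and Nkx1-2 are at 0 in every anterior library. Eomes and Evx1 reach only 1.25 and 0.17 there in log2(FPKM + 1). These low anterior levels enter every r among the genes other than T, so the pairs differ mainly by the posterior libraries. The values of r are descriptions without a test.

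**Figure D3:**
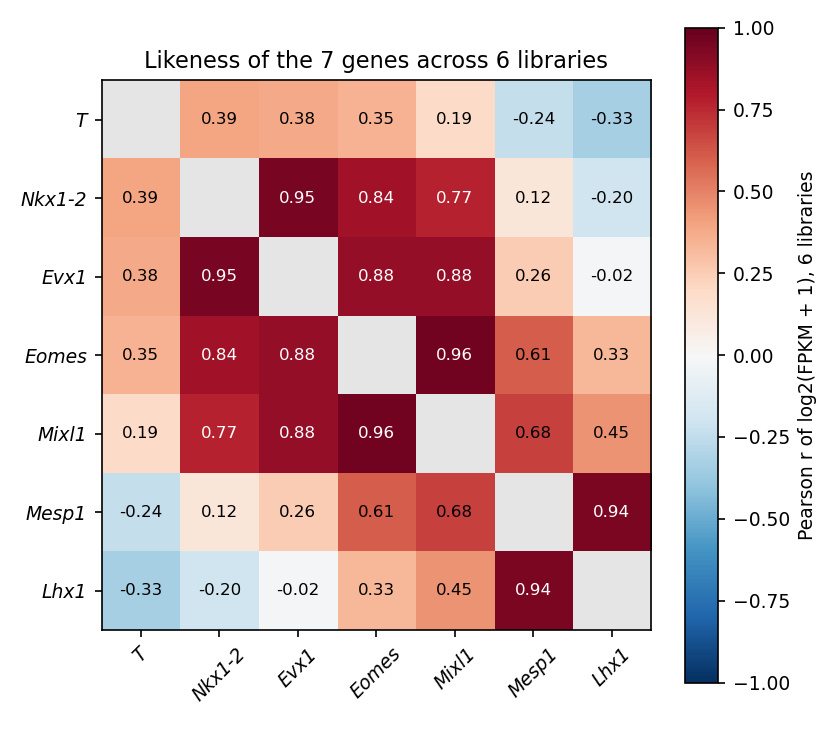
Pearson r of log2(FPKM + 1) over the 6 libraries for each pair of the 7 genes, red for positive and blue for negative. Mixl1 with Eomes, Evx1 with Nkx1-2 and Mesp1 with Lhx1 are the closest pairs (0.96, 0.95 and 0.94), and the row of T holds no r above 0.39.

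The genes most like T over the 6 libraries were Dalrd3 (r 0.997), Inpp1 (0.993), Mir20a (0.993), Slc35c2 (0.990) and Zfp612 (0.990). Dalrd3, for example, was at 0 in anterior A, anterior B and posterior C and at 3.96, 2.10 and 3.27 in log2(FPKM + 1) in anterior C, posterior A and posterior B. Those most like Mixl1 were Acot1 (0.998), Sall3 (0.994), a zinc finger factor, and Mad2l1 (0.992), of the spindle checkpoint. For Eomes they were 1190007I07Rik (0.992), Med18 (0.986) and Kti12 (0.986), and for Mesp1 Zbtb34 (0.998), Fam98c (0.995) and BC022687 (0.994). Tada1, 1810055G02Rik and Zscan21 (each 0.989) were nearest to Evx1, and Gulo (0.998), Wdr25 (0.998) and Baat1 (0.997) to Lhx1. For Nkx1-2, with only 2 libraries above 0, the nearest were 1110034G24Rik, Fcor and Lck (each 1.00), and any gene above 0 in those 2 libraries alone at a like ratio would come close. None of these neighbours is on the lists of streak genes and regulators below.

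Upstream of the factors come the ligands and the co-receptor that start the streak. Of these, 10 of 13 measured genes lay higher in the posterior domain, 0 of them called. Their median difference was 1.66, against 0.43 over all genes. With that median above 0, most genes of any kind lay higher in the posterior domain. Counts of direction, here and for the lists below, are therefore descriptions and no sign of a streak pattern by themselves. Tdgf1, the Nodal co-receptor Cripto, differed by 6.13 ± 0.97 (limma SE) in log2(FPKM + 1), Wnt3, the ligand that starts the streak, by 5.23 ± 0.96, and Nodal by 4.69 ± 0.99. Fgf8, a ligand of the streak that acts on migrating mesoderm, differed by 3.89 ± 1.25. In embryo C, where T was high in anterior C, Nodal was at 0.32 in anterior and 4.77 in posterior C, and Wnt3 at 0.92 and 6.15. Nodal and Wnt3 were thus higher in the piece with less T.

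Transducers of the Nodal and Wnt signals were split, with 9 of 13 higher in the posterior domain, 0 called, and a median of 0.18. Lef1, a nuclear effector of Wnt signalling, ran from 0.35 to 1.76 in the anterior and from 3.61 to 4.46 in the posterior libraries, in log2(FPKM + 1). Tcf7, of the same family, differed by 2.03 ± 0.91 (limma SE), Lrp6, a Wnt co-receptor, by 1.76 ± 1.10, and Smad3, a transducer of Nodal signals, by -2.36 ± 1.24. Inhibitors and feedback targets were higher in the posterior domain for 8 of 9 genes, 0 called, with a median of 1.83, and Nog, a BMP inhibitor named after its values were seen, differed by -2.48 ± 1.08. Lefty1 and Lefty2, which block Nodal, differed by 4.30 ± 1.05 and 3.50 ± 0.94, Axin2, which blocks Wnt, by 3.63 ± 0.94, and Spry4, which dampens FGF signals, by 3.20 ± 0.93.

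Among other streak and mesoderm transcription factors 12 of 16 were higher in the posterior domain, 0 called, with a median of 0.80. Sp5, a Wnt target, was listed at 0 in each anterior library and lay between 3.92 and 4.91 log2(FPKM + 1) units in the posterior pieces. Foxh1, the Nodal partner factor, differed by 3.01 ± 1.00 (limma SE) and Hoxb1 by 2.02 ± 0.87. The other 4 were lower in the posterior domain, most of all Foxa2, named after its values were seen, by -1.42 ± 0.87. Foxa2 was lower in the posterior piece of A and B and higher in that of C (4.82, against 4.22 in anterior C). Of nascent mesoderm genes 10 of 16 were higher in the posterior domain, 0 called, with a median of 0.21, which is below that of all genes and was -0.47 without embryo C. Within that list Rspo3, an enhancer of Wnt signalling, was listed at 0 in each anterior library and lay between 1.82 (A) and 6.67 (C) in the posterior pieces, and Cdh2, the N-cadherin of mesoderm cells, ran from 0.15 to 1.22 in the anterior and from 1.03 to 4.51 in the posterior libraries, highest in C. Frzb, a secreted Wnt inhibitor, and Lhfp lay the other way, by -2.02 ± 1.14 and -1.87 ± 1.18. Lhfp was at 5.48 in anterior A and at 0.46 or less in every other library, so 1 library carries its difference. Genes of definitive endoderm and the node were higher in the posterior domain for 6 of 7, 0 called, with a median of 1.37. Embryo C carried that median: it was 0.31 in A, 0.11 in B and 2.65 in C, and 0.06 over A and B without C. Trh differed by 5.40 ± 1.14, Cxcr4, a chemokine receptor, by 1.78 ± 0.85, and Sox17, an endoderm factor, by 1.54 ± 1.19. Foxa1, an endoderm factor, was at 0 in 4 libraries and at 0.11 and 3.99 in posterior B and C, so 1 library carries its difference.

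Marker lists of other cell states differed in direction. Epiblast and pluripotency markers were higher in the posterior domain for 15 of 16, 0 called, with a median of 1.77, and Dppa5a, a gene of pluripotent cells, differed by 5.67 ± 0.79 (limma SE). Visceral endoderm markers were higher for 8 of 11, 0 called, with a median of 0.35, which is below that of all genes. By embryo that median was -0.90 in A, -0.68 in B and 0.80 in C, and 1 gene was higher in the posterior piece of every embryo. Spink3 differed by 3.26 ± 0.88 and Lrp2, an endocytic receptor, by -2.71 ± 0.76. Parietal endoderm markers were higher for 5 of 12 and trophoblast markers, Eomes included, for 5 of 11. In either list 0 were called, with medians of -0.28 and -0.05. Col4a1, a basement membrane collagen, differed by -1.66 ± 1.09, and Gata3, a trophoblast factor, by -1.48 ± 0.84. In embryo C the parietal list had a median of 4.10, against -1.78 in A and -2.58 in B, and Mesp1 and Lhx1 were highest in that posterior library; the part of parietal endoderm in their levels was not tested.

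**Figure D4:**
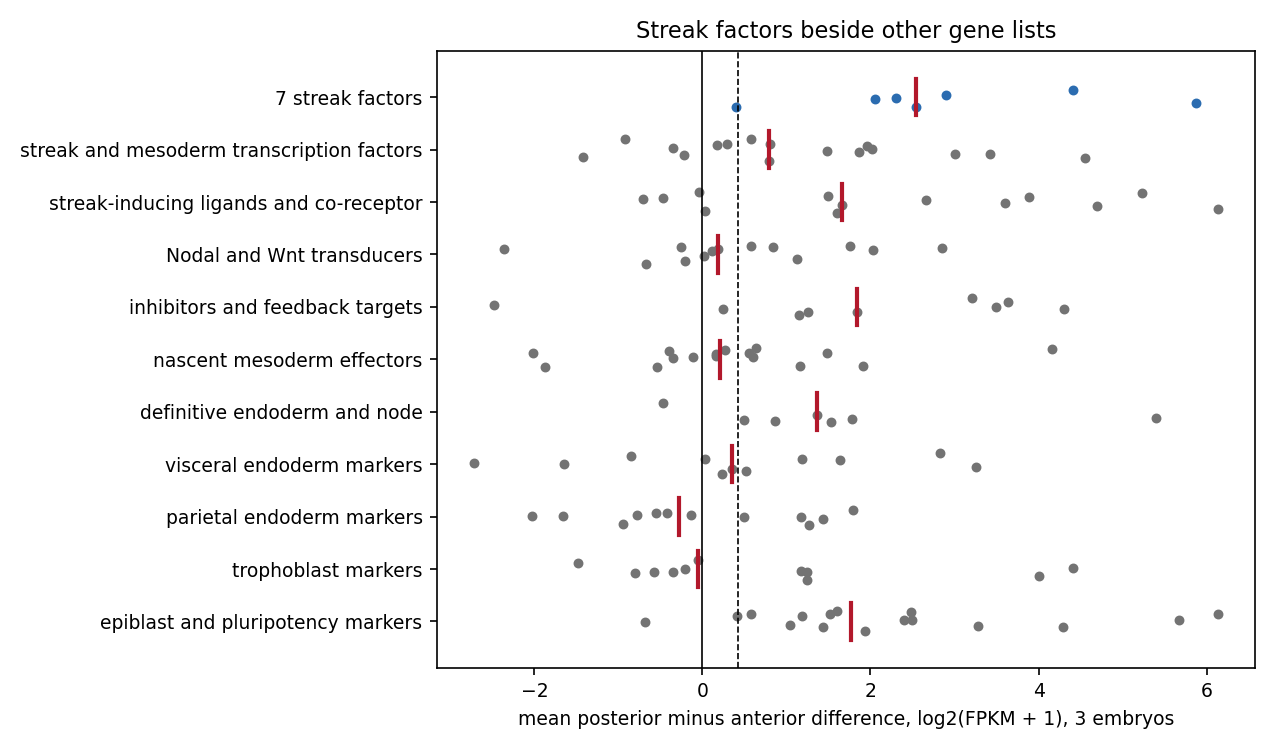
Mean posterior minus anterior difference in log2(FPKM + 1) on the horizontal axis, 1 point per gene, for the 7 streak factors (blue) and the gene lists (grey). Eomes is also a point of the trophoblast list. Red bars are list medians and the dashed line is the median of all genes tested (0.43), and the streak factors have a median of 2.54.

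Different listed genes were nearest to different members. Of 119 other genes on the lists, 13 had an r of at least 0.9 with Mixl1 and 11 with Eomes, against 1.90% and 1.65% of all genes, and 0 had it with T, against 1.36% of all genes. Those nearest to Mixl1 were Axin2 (0.98), Lefty2 (0.98) and Spry4 (0.97), and those with Eomes included Axin2 (0.97), Lefty2 (0.96) and Lefty1 (0.96). With Mesp1 there were 10 (8.40%, against 2.78% of all genes), among them Wnt5a (0.98), Hoxb1 (0.97), Rspo3 (0.96), Cdh2 (0.95) and Foxf1 (0.94), and with Lhx1 there were 7 (5.88%, against 2.07%), among them Foxa1 (0.98), Cdh2 (0.96), Wnt5a (0.93) and Rspo3 (0.91). With Evx1 there were 5 (4.20%, against 2.03%), led by Fgf4 (0.97). With Nkx1-2 there were 3 (2.52%), a share near the 2.18% of all genes. These genes were named after their values were seen, and the lists were written with earlier results of these data known.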

How the data were processed

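Per the labels' protocols, RNA was amplified by Smart-seq2 (18 cycles of preamplification) and the reads were aligned to an Ensembl mouse genome, with HTSeq-count for quantification. TopHat2 2.0.4, Cufflinks 2.0.2 and the build mm10 appear in the submitters' processing notes, without saying which tool produced the values. What the authors deposited is 1 table of log2(FPKM + 1) values, with 12826 genes and 6 libraries; the base of the log was read from the values. A value of 0 is reported as listed at 0, since it can be a failed estimate.

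A filter on the mean (1 FPKM or more) left 10914 genes. Posterior minus anterior was fitted in limma 3.58.1 (R 4.3.3) with a term for the embryo and variances moderated toward a trend. The p-values were two-sided, with Benjamini-Hochberg adjustment at 0.05. The script was tested on simulated data with less spread than the streak factors show across embryos, and without genes absent from single libraries. That test does not show the power of the fit for these data. Both pieces come from the same individual, which is why they are paired; their deviations from the means of the domains had an r of -0.07 (A), 0.04 (B) and -0.03 (C). With 3 embryos the fit has 2 residual degrees of freedom, against 7.5 that come from the trend over all genes. The p-values and the limma SE thus rest mostly on that trend, and only partly on the spread among these embryos. Differences on this scale understate changes of low genes.

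The 7 genes and the 10 gene lists were chosen with earlier results of these data known. The lists share genes and are not separate comparisons. Tdgf1 and Fgf5 are among both the ligands and the epiblast markers. Otx2 is among the streak factors and the epiblast markers, and Hand1 among the streak factors and the trophoblast markers. Genes named besides the 7 are the 5 (T) or 3 (others) with the highest Pearson r, and up to 4 per list with the largest absolute difference, not every one of them printed. Some further genes are marked as named after their values were seen. Depth ratios are the most frequent ratio between 2 libraries of genes under 1 FPKM in both (window 0.01 in log2), and are ambiguous by a factor of 2. Annotation was GENCODE M21, and promoters were from RefSeq.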

Additional observations from a re-analysis of the deposited data

Results flagged for a closer look

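T was singled out because its pieces moved in opposite directions in different embryos. The posterior minus anterior difference in log2(FPKM + 1) was -5.44 in embryo C, against 2.59 in A and 4.05 in B. The difference between embryos was not tested, since each has 1 library per domain. In the same embryo the difference was 4.97 for Mixl1, 5.16 for Mesp1 and 5.04 for Lhx1.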

How the results depend on the processing

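Across 9 alternatives per gene, Mixl1, Eomes, Mesp1, Evx1, Lhx1 and Nkx1-2 were higher in the posterior domain in all 9, while T kept its sign in 5. Mixl1, Mesp1, Lhx1 and Nkx1-2 were at 0 in every anterior library. No pseudocount, filter or left-out library could turn their sign, so those settings do not test it. A pseudocount of 0.1 in place of 1 widened the differences to 9.16 (Mixl1), 6.80 (Eomes), 5.91 (Mesp1), 4.80 (Evx1) and 4.44 (Nkx1-2), as its construction does for genes at 0. Medians of lists moved to 1.58 (streak and mesoderm factors), 4.33 (ligands) and 1.41 (visceral endoderm) with that pseudocount and to -0.76 (trophoblast) with quantile normalization. Leaving out an embryo gave 0.59 to 1.58 for streak and mesoderm factors and -0.59 (without C) to 0.84 for visceral endoderm; the cause was not tested. The sign of a list median also turned for transducers (-0.02 without A), nascent mesoderm (-0.47 without C), parietal endoderm (0.46 without A, 1.06 without B) and trophoblast (0.45 without A, 0.28 without B). Centring and quantile normalization put transducers at -0.31 and -0.12, nascent mesoderm at -0.27 and -0.18, and visceral endoderm at -0.14 and -0.15. With a pseudocount of 0.1, parietal endoderm was at 0.31 and trophoblast at 0.03. Without anterior A alone, parietal endoderm was at 0.38 and trophoblast at 0.36. Without anterior C alone, nascent mesoderm was at -0.36, visceral endoderm at -0.58 and trophoblast at 0.37.

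With no replicate block, 0 genes were called, and 912 were higher and 119 lower in the posterior domain at an unadjusted p under 0.05, against 790 and 86 in the paired fit. Without anterior C alone, chosen after seeing the data, 1 gene was called (Mir682, lower in the posterior domain) and 232 were lower at an unadjusted p; without anterior A alone 191 were lower. Centring on the median gene gave 429 higher and 297 lower, and quantile normalization 513 and 315, a change of the split; they put the median of all genes at -0.06 instead of 0.43. Leaving out 1 embryo gave 348 to 898 higher and 36 to 140 lower. Among embryos, 3 genes were called (Rbp4, Snora31 and Snord8) with no filter, with centring and with quantile normalization, 0 to 4 when 1 embryo was left out (Snord8, Mir181b-2, Mir669a-2 and Snora81 without A), with 120 to 533 at an unadjusted p, and none of the 7.

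By Spearman rho, 2 of the 5 genes nearest T, 1 of 3 for Mesp1 and for Evx1, and 0 of 3 for Mixl1 and for Eomes stayed at the top rank. The levels of Lhx1 in posterior A and of Evx1 in anterior A and B lie near the floor of these libraries. The part of read depth in them was not tested.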

Other observations

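Some marker genes of other cell states had patterns like single streak factors over the 6 libraries, and these were named after their values were seen. Zfp42, a gene of naive pluripotency, had an r of 0.93 with Mesp1 and 0.91 with Lhx1, at 1.11, 3.55 and 5.55 in log2(FPKM + 1) in posterior A, B and C. The other 15 genes of the epiblast list ran from -0.98 (Epcam) to 0.74 (Dppa4) with Lhx1, and from -0.91 (Epcam) to 0.90 (Tdgf1) with Mesp1. Nanog, a core pluripotency factor, had an r of 0.96 with Eomes and 0.93 with Mixl1. The rest of the epiblast list ran from -0.28 (Epcam) to 0.89 (Tdgf1) with Eomes. With Mixl1 it ran from -0.35 (Epcam) to 0.93 (Tdgf1 and Dppa4), so Nanog did not stand apart there. Tfap2c, a factor of trophoblast and germ cells, had an r of 0.91 with Mixl1, and the trophoblast markers other than it and Eomes ran from -0.60 (Hand1) to 0.69 (Elf5). Apoc2, an apolipoprotein of visceral endoderm, had an r of 0.94 with Evx1, at 4.21, 6.82 and 0 in posterior A, B and C, although the other 10 genes of that list ran from -0.95 (Lrp2) to 0.69 (Spink3). Nid1, a basement membrane gene of parietal endoderm, had an r of 0.93 with Lhx1, at 0.48, 2.39 and 4.87, and the other 11 genes of its list ran from -0.53 (Plat) to 0.60 (Sox7). The part of such cells in the levels of the streak factors was not tested.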
